A study of Homo sapiens with 60 samples.

Results

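Transcripts of HT29 cells given the ethanol extract of Schisandrae Fructus at its high dose were compared with those of HT29 cells given the vehicle, DMSO. Schisandrae Fructus is the dried fruit of a magnolia vine used in East Asian herbal medicine, and HT29 is an established human colorectal adenocarcinoma line that keeps features of intestinal epithelium, secretory cells included. The 6 libraries of this comparison were taken by their titles from the 60 libraries of the series, and all 17330 genes that passed a filter on low counts were tested. The high dose was 500 µg/mL for 24 h (n = 3), and the vehicle cells also had 24 h (n = 3). Further groups served to place the difference: the medium dose (100 µg/mL) and the low dose (20 µg/mL) of the same extract, and the ethanol extract of Liriopis seu Ophiopogonis Tuber, another herb, at 500 µg/mL, each after 24 h and with n = 3. The labels give 0.1% DMSO for the vehicle while the series description gives 2%, and no percentage for the extract libraries was found in the labels. Library names start with 9 in the 4 extract groups and with C1 in the vehicle, and what this prefix marks is not given. Extract, prefix and any difference in DMSO therefore cannot be told apart in a comparison with vehicle, whereas the low dose and the Liriopis extract share their prefix with the high dose. The labels do not say whether the 3 libraries of a group came from separate cultures, so the p-values measure the spread between libraries, which may be technical.

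Total counts ran from 18161717 to 31046187 in the high dose libraries and from 26739231 to 30446712 in the vehicle libraries. Of the 11 markers of colon epithelial lines, 11 were tested, and their summed level was 12700 to 13740 CPM in the high dose libraries and 12310 to 13880 CPM in the vehicle libraries; CPM are read counts scaled to a common library total. Of 13 leukocyte markers, 5 were tested, and nearly all of their summed level (1369 to 1461 CPM in the high dose libraries, 1437 to 1550 CPM in the vehicle libraries) was lysozyme, LYZ, which intestinal epithelium also makes. Of 10 fibroblast markers, 3 were tested, with sums of 2.92 to 3.26 CPM in the high dose libraries and 2.92 to 3.62 CPM in the vehicle libraries. Of 8 endothelial markers, 4 were tested, with sums of 44.3 to 48.4 CPM in the high dose libraries and 45.0 to 48.2 CPM in the vehicle libraries, mostly of ESAM. Of 10 hepatocyte markers, 5 were tested, with sums of 284 to 300.4 CPM in the high dose libraries and 321 to 344 CPM in the vehicle libraries. Nearly all of that was SERPINA1, lower at the high dose with a log2 fold change of -0.24 ± 0.06, a call lost without high dose replicate 2 or vehicle replicate 3 (highest adjusted p 0.139). Of 7 erythroid markers, 0 were tested, and their sum was at most 0.226 CPM in the high dose libraries and 0.266 CPM in the vehicle libraries. Transcripts encoded in mitochondria took 9.54 to 11.3% of counts in the high dose libraries and 10.6 to 13.6% in the vehicle libraries.

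The aryl hydrocarbon receptor, AHR, is a transcription factor of the cytosol that many planar aromatic compounds bind. It then enters the nucleus, pairs with ARNT and acts at xenobiotic response elements of genes for phase I enzymes such as the cytochromes P450 of family CYP1. NRF2, encoded by NFE2L2, is held and degraded through KEAP1 until electrophiles or oxidants release it, and it acts with small MAF proteins at antioxidant response elements of genes for glutathione synthesis, thioredoxin reduction, NADPH supply and carbonyl reduction. Both pathways are active in intestinal epithelium, which meets dietary plant compounds first. In bulk RNA, fewer cells of a type and less RNA per cell cannot be told apart.

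At a Benjamini-Hochberg adjusted p under 0.05 in edgeR's quasi-likelihood test, 1070 genes differed between the high dose and vehicle, which is 6.17% of those tested. Of these, 588 were higher (3.39%) and 482 lower (2.78%) in high dose cells. Below, CPM means are given ± SD (n = 3) and log2 fold changes ± SE. Of the 17330 genes tested, 3361 (19.4%) had no overlap between the high dose and vehicle libraries, as did 965 of the 1070 called. Lack of overlap therefore adds little to a call. It was also required of the largest rises and falls named by the rule in the methods, so for those it was fixed in advance. Most differences were small, with a median size of 0.23 on the log2 scale among the genes called, and 15 of the higher and 6 of the lower genes changed at least 2-fold. Leaving out high dose replicate 1, 2 or 3 gave 700, 620 and 587 calls, and leaving out vehicle replicate 1 or 3 gave 1749 and 358. A fit of the high dose and vehicle libraries alone gave 110 calls (82 higher, 28 lower). The fit with all 54 replicated libraries of the series, including 2 from other extracts that stand apart, gave 117 calls (74 higher, 43 lower). Of 132 genes named by the rule in the methods and called against vehicle, 35 kept their call in that fit, among them CYP1A1, CYP1B1, ALDH3A1, ALDH1A3, HMOX1, SLC7A11, GCLM, GCLC, AKR1B10, SELENOW, REG4, FOXA2, SLC6A20 and ANXA13, while NQO1, TIPARP, AGR2, VIL1 and HNF4A were among those that lost it. Within the shared library prefix, the high dose differed from the low dose in 90 genes (51 higher, 39 lower; 0.519% of those tested), and without low dose replicate 2 in 59. It differed from the Liriopis extract in 73 genes (44 higher, 29 lower; 0.421%), in 45 and 46 without high dose replicate 2 or 3, and in 40 and 46 without Liriopis replicate 1 or 2. With all 54 libraries, 20 of 45 named genes kept their call against the low dose and 10 of 43 against the Liriopis extract. These 3 comparisons share the high dose libraries and are given side by side.

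**Figure D1:**
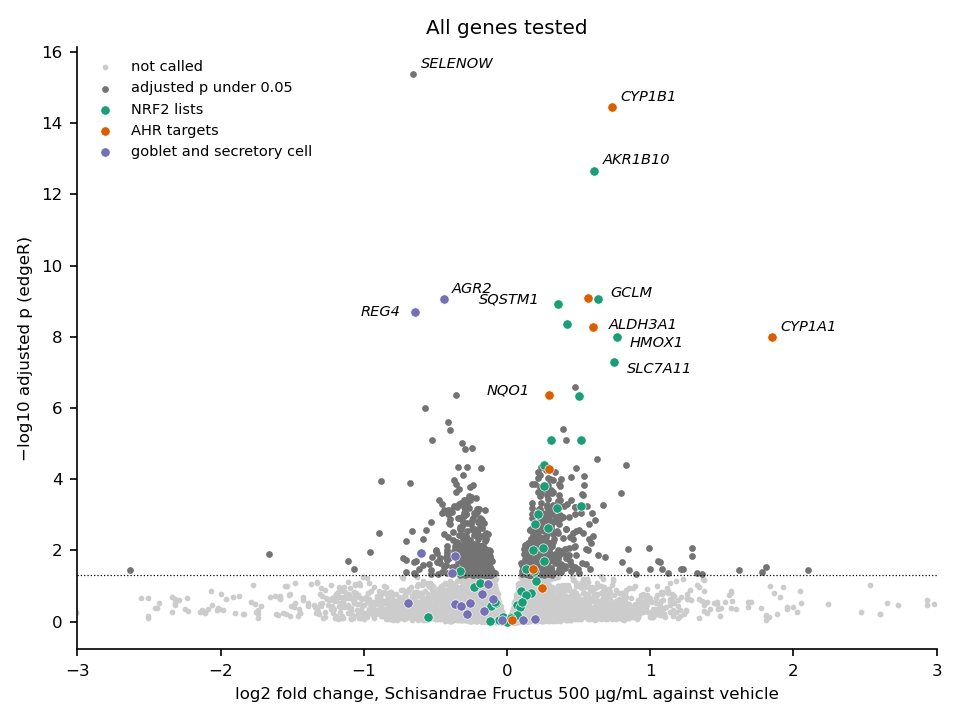
Each point is a gene of the comparison of high dose with vehicle, with its log2 fold change (high dose over vehicle) on the horizontal axis and −log10 of its adjusted p on the vertical axis, with called genes in dark grey and members of the NRF2, AHR and goblet lists in colour; 68 genes lie outside the horizontal range of 3 on either side. CYP1A1 lies farthest right of the labelled genes at 1.85, and SELENOW has the smallest adjusted p at 4.29e-16.

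Targets of AHR had the highest median log2 fold change against vehicle of all lists examined. Of 11 genes in the list, 9 were tested, and 7 rose in high dose cells against vehicle (higher calls made up 3.39% of all genes tested), with none lower and a median log2 fold change of 0.30 over the 9, against -0.0047 over all genes. CYP1A2 and SERPINB2, the other two, were under the filter and listed at 0 in all 6 libraries. Against the low dose 6 of 9 rose (background 0.294% higher), and against the Liriopis extract 6 of 9 rose (background 0.254% higher). In these 2 comparisons the median of AHR targets was 0.341 and 0.309, under the 0.431 and 0.389 of the carbonyl and quinone list of NRF2 targets. The hepatocyte markers, of which 5 were tested, had 0.724 against the low dose. Leaving out single libraries kept 6 to 7 calls against vehicle, and the fit with all 54 libraries kept 4.

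CYP1A1 (ENSG00000140465, chromosome 15, 74719542 to 74725610, GRCh38), the cytochrome P450 most tightly tied to AHR, stood at 2.17, 1.65 and 1.65 CPM in the high dose libraries, against 0.476, 0.338 and 0.697 CPM in the vehicle libraries. The groups did not overlap, and the log2 fold change was 1.85 ± 0.20 (SE; adjusted p = 1.01e-08), with 1.57 ± 0.19 against the low dose and 1.10 ± 0.18 against the Liriopis extract. CYP1A1 remained a rare transcript in all of these libraries. CYP1B1, a related P450 that also hydroxylates oestrogens, had 77.1, 77.7 and 78.8 CPM in high dose libraries, against 46.2, 48.4 and 45.9 CPM in vehicle libraries (0.73 ± 0.05, adjusted p = 3.62e-15). Every high dose library lay above every vehicle library, and CYP1B1 was also higher than at the low dose (0.56 ± 0.05) and under the Liriopis extract (0.58 ± 0.05).

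Among AHR targets that oxidise aldehydes, ALDH3A1, an aldehyde dehydrogenase of lipid peroxidation products, reached 43.4, 38.1 and 42.6 CPM in the high dose libraries, against 27.7, 27.1 and 27.7 CPM in the vehicle libraries. Its log2 fold change was 0.60 ± 0.06 against vehicle (adjusted p = 5.31e-09), 0.65 ± 0.06 against the low dose and 0.44 ± 0.06 against the Liriopis extract. ALDH1A3, which oxidises retinal to retinoic acid, had 34.8, 37.3 and 35.7 CPM in high dose libraries, against 25.3, 25.1 and 22.2 CPM in vehicle libraries (0.57 ± 0.05, adjusted p = 8.00e-10). For both genes the groups did not overlap. NQO1, the quinone reductase that AHR and NRF2 share as a target, averaged 594 ± 24.5 CPM in high dose cells and 484 ± 6.39 CPM in vehicle cells (SD, n = 3 each; log2 fold change 0.30 ± 0.04). TIPARP, an ADP-ribosyltransferase that feeds back on AHR, changed by 0.29 ± 0.05, and UGT1A6, a phenol glucuronosyltransferase, by 0.18 ± 0.05. The call of UGT1A6 was lost without high dose replicate 1 or 3 or vehicle replicate 1 or 3 (highest adjusted p 0.154), and the call of TIPARP against the low dose was lost without low dose replicate 3 (adjusted p = 0.077). AHRR, the repressor of AHR, did not pass the test at 0.25 ± 0.09 (adjusted p = 0.115), nor did the P450 CYP2S1 at 0.04 ± 0.09 (adjusted p = 0.873).

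**Figure D2:**
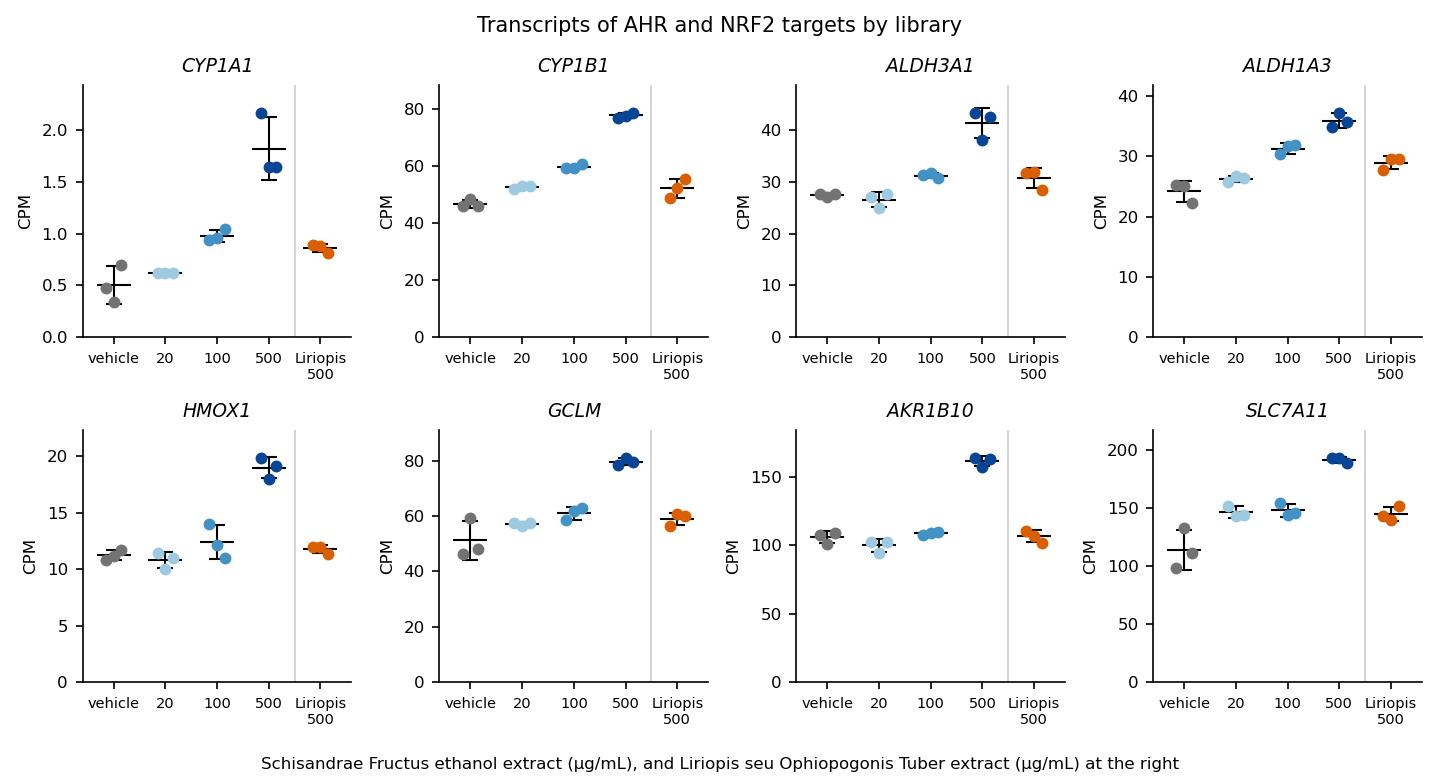
CPM of genes that were higher at the high dose, by group: vehicle, then 20, 100 and 500 µg/mL of Schisandrae Fructus extract, then 500 µg/mL of the Liriopis extract; points are single libraries, horizontal marks their means and whiskers the SD. In CYP1A1, HMOX1 and AKR1B10 the 3 libraries at 500 µg/mL of Schisandrae Fructus extract lie above those of every other group shown.

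The core letters of both response elements were searched on both strands in RefSeq promoter windows of GRCh38.p14, from 250 bases before the annotated start to the base before it. The search covered the 22 members of the AHR and NRF2 lists that were higher than both vehicle and the low dose; 16 of them had a window, 22 windows in all. The xenobiotic element core, GCGTG, occurred in 3 of 6 windows of AHR list members (50%), while 32.2% of all 35116 windows and 42.2% of the 16375 windows of tested genes hold it. The antioxidant element core, TGACNNNGC, occurred in 5 of 17 windows of NRF2 list members (29.4%), against 10.9% of all windows and 11.8% of those of tested genes. The following windows, printed 5′ to 3′ on the strand of the gene, were chosen because they hold the core of their list, and capitals mark every match of either core on either strand.
CYP1A1, chr15:74725529-74725778, minus strand: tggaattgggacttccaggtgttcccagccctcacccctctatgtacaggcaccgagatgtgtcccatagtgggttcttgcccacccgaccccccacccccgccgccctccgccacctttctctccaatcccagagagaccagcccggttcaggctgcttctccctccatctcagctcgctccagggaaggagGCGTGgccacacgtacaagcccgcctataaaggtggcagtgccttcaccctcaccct
ALDH1A3, chr15:100879581-100879830, plus strand: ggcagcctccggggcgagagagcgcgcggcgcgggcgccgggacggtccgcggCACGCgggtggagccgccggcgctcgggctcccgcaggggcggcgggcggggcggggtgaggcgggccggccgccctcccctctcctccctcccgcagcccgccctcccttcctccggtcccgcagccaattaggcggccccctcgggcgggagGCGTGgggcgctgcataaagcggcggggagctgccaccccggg
GCLM, chr1:93909431-93909680, minus strand: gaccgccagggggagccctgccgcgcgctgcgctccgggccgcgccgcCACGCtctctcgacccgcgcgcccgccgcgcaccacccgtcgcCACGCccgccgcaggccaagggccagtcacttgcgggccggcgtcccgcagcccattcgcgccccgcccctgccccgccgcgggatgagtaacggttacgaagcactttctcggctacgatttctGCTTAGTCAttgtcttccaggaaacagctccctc
ME1, chr6:83431052-83431301, minus strand: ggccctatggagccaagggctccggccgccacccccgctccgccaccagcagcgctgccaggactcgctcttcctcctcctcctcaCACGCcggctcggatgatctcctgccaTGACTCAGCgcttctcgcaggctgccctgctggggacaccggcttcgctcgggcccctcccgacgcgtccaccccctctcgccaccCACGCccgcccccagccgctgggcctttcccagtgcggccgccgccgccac
In CYP1A1 the single xenobiotic core begins at position -57 from the start, and the antioxidant core lies at -34 in GCLM and at -137 in ME1. In these windows no match of one core overlaps a match of the other. A match is a run of letters and not evidence of binding, and no binding was measured in these cells.

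NRF2 targets were taken as 6 lists by role, pooled here. Of 50 distinct genes 49 were tested; 22 rose and 1 fell against vehicle (3.39% of all genes were higher and 2.78% lower), with a median log2 fold change of 0.13. Against the low dose 19 rose and 1 fell (background 0.294% higher, 0.225% lower; median 0.20), and against the Liriopis extract 18 rose and none fell (background 0.254% higher; median 0.19). Leaving out single libraries gave 18 to 22 higher calls against vehicle, 12 to 18 against the low dose (12 without low dose replicate 2) and 11 to 15 against the Liriopis extract (11 without high dose replicate 3). With all 54 libraries 12, 8 and 5 higher calls were left.

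For glutathione synthesis, 4 of 10 genes rose against vehicle. SLC7A11, the cystine importer that supplies cysteine, had 193, 193 and 189 CPM in high dose libraries, against 98.3, 132 and 111 CPM in vehicle libraries, a log2 fold change of 0.75 ± 0.08 (adjusted p = 5.23e-08). GCLM, the modifier subunit of glutamate-cysteine ligase, the enzyme of the first step, had 78.4, 81.1 and 79.4 CPM in the high dose libraries, against 46.2, 59.3 and 48.2 CPM in the vehicle libraries (0.64 ± 0.06, adjusted p = 8.83e-10). Its catalytic partner GCLC averaged 106 ± 1.83 CPM in high dose cells and 79.6 ± 6.03 CPM in vehicle cells (0.42 ± 0.04). In all of these genes the groups did not overlap, and all were also higher than at the low dose, by 0.39 for SLC7A11, 0.48 for GCLM and 0.34 for GCLC. The call of SLC7A11 against the low dose was lost without high dose replicate 1 or low dose replicate 2 or 3 (highest adjusted p 0.0815). SLC3A2, the heavy chain that pairs with SLC7A11, rose by 0.26 ± 0.04 against vehicle and did not pass against the low dose at 0.13 ± 0.04 (adjusted p = 0.170). GSS, which completes glutathione, and GSR, which reduces it, did not pass, at 0.01 ± 0.04 (adjusted p = 0.949) and 0.07 ± 0.04 (adjusted p = 0.340). GGT1, which breaks down extracellular glutathione, changed by -0.36 ± 0.08 against the low dose and stood at -0.23 ± 0.08 against vehicle (adjusted p = 0.108); its call against the low dose was lost in 5 of the 6 fits that leave out a library (highest adjusted p 0.219).

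In the thioredoxin list 2 of 6 genes rose and 1 fell. TXNRD1, the selenoenzyme that reduces thioredoxin with NADPH, averaged 405 ± 11.1 CPM in high dose cells and 327 ± 17.9 CPM in vehicle cells (0.31 ± 0.04, adjusted p = 8.08e-06). SRXN1, which repairs overoxidised peroxiredoxins, rose by 0.18 ± 0.04, a call lost without vehicle replicate 3 (adjusted p = 0.054). GLRX, glutaredoxin, changed by -0.33 ± 0.10, a call lost in 5 of the 6 fits that leave out a library (highest adjusted p 0.369 without vehicle replicate 3). TXN itself stood at -0.19 ± 0.07 and PRDX1, an abundant peroxiredoxin, at -0.09 ± 0.04, neither past the test (adjusted p = 0.0836 and 0.285). Of 6 NADPH-supplying enzymes 3 rose, among them TKT, transketolase, by 0.22 ± 0.04, and ME1, cytosolic malic enzyme, by 0.26 ± 0.04. Against the low dose TKT differed by 0.23 and ME1 by 0.23. PGD and IDH1, which also reduce NADP, and TALDO1, transaldolase of the pentose phosphate pathway, had 0.09 ± 0.04, 0.03 ± 0.03 and 0.00 ± 0.04 and did not pass.

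HMOX1, the inducible heme oxygenase, led the list of heme and iron genes, of which 2 of 7 rose. It had 19.9, 17.96 and 19.1 CPM in high dose libraries, against 10.8, 11.2 and 11.7 CPM in vehicle libraries, 11.5, 10.01 and 10.96 CPM at the low dose and 11.96, 11.99 and 11.3 CPM under the Liriopis extract. The high dose libraries lay above all of these, and the log2 fold change was 0.77 ± 0.08 against vehicle (adjusted p = 1.01e-08), 0.83 ± 0.08 against the low dose and 0.70 ± 0.08 against the Liriopis extract. FECH, which inserts iron into heme, rose by 0.28 ± 0.06. The ferritin chains FTL and FTH1, which store iron, had 0.17 ± 0.07 and 0.03 ± 0.07 and did not pass (adjusted p = 0.156 and 0.884); both have many processed pseudogenes among which reads can be split.

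Carbonyl and quinone reductases rose in 6 of 10 tested genes. AKR1B10, an aldo-keto reductase of retinal and lipid aldehydes, had 164, 157 and 163 CPM in high dose libraries, against 107, 101 and 109 CPM in vehicle libraries (0.61 ± 0.04, adjusted p = 2.18e-13). Low dose cells had 102, 94.6 and 102 CPM and Liriopis cells 110.4, 107 and 102 CPM, so no library of these 3 groups reached the high dose range. AKR1C1, AKR1C2 and AKR1C3, reductases of steroids and quinones, rose by 0.50 ± 0.06, 0.52 ± 0.10 and 0.51 ± 0.07. These genes are near-identical copies, so the split of reads between them is uncertain. UGDH, which makes UDP-glucuronate, the donor for glucuronidation, rose by 0.14 ± 0.04, a call lost in 5 of the 6 fits that leave out a library (highest adjusted p 0.207).

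Among regulators of the pathway 5 of 10 rose. SQSTM1, the autophagy receptor that competes for KEAP1, averaged 458 ± 13.2 CPM in high dose cells and 358 ± 13.6 CPM in vehicle cells (0.35 ± 0.03, adjusted p = 1.19e-09), and it differed by 0.36 ± 0.03 from the low dose and 0.35 ± 0.03 from the Liriopis extract. OSGIN1, an oxidative stress-induced growth inhibitor, rose by 0.35 ± 0.07. BACH1, the heme-sensing repressor of antioxidant elements, rose by 0.26 ± 0.07, KEAP1 by 0.20 ± 0.04 and MAFG, a small MAF partner, by 0.19 ± 0.06; none of these passed against the low dose. BACH1 lost its call against vehicle without high dose replicate 1 or 3 or vehicle replicate 3 (highest adjusted p 0.212), KEAP1 without high dose replicate 3 (adjusted p = 0.06), and MAFG when any library but vehicle replicate 1 was left out (highest adjusted p 0.272). MAFF, another small MAF, and PIR, pirin, were higher than under the Liriopis extract (0.30 for MAFF, 0.31 for PIR) and did not pass against vehicle or the low dose; both calls were lost when single libraries were left out (highest adjusted p 0.281 and 0.165). The transcript of NRF2 itself, NFE2L2, averaged 119 ± 1.97 CPM in high dose cells and 126 ± 8.93 CPM in vehicle cells and did not pass (-0.08 ± 0.04, adjusted p = 0.299).

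Conjugation and export showed a narrower change. Against vehicle 3.39% of all genes tested were higher. Of 10 tested UDP-glucuronosyltransferases 4 rose, all of the UGT1A locus: UGT1A1, the bilirubin enzyme, by 0.29 ± 0.05, UGT1A8 by 0.24 ± 0.04, UGT1A10 by 0.22 ± 0.03, and UGT1A6 as given above. These transcripts share all but their first exon, so their counts are not separate measurements. With all 54 libraries none of the 4 kept its call against vehicle (adjusted p from 0.0507 for UGT1A1 to 0.386 for UGT1A6). With only the 2 groups in the fit 1 of the list was higher. UGT1A1, UGT1A8 and UGT1A10 were also higher than at the low dose (3 of 10, background 0.294%) and under the Liriopis extract (3, background 0.254%). Leaving out single libraries kept 3 and 2 to 3 of these calls. With all 54 libraries UGT1A1 and UGT1A10 kept the call against the low dose (adjusted p = 0.00564 and 0.00747), and none was left against the Liriopis extract. Of 7 drug efflux pumps 2 rose: ABCC3, a basolateral exporter of glucuronides, by 0.29 ± 0.05, and ABCG2, an apical pump of broad range, by 0.20 ± 0.04. ABCC3 was also higher than at the low dose (0.21 ± 0.05) and under the Liriopis extract (0.21 ± 0.05). Both of those calls were lost when single libraries were left out (highest adjusted p 0.106 and 0.229) and with all 54 libraries. The call of ABCC3 against vehicle was lost with all 54 libraries too (adjusted p = 0.206). ABCG2 lost its call without vehicle replicate 3 (adjusted p = 0.0718) and stood at 0.09 ± 0.04 against the low dose (adjusted p = 0.831). Among targets of the nuclear receptors PXR and CAR, 1 of 7 tested genes, CYP3A5, rose (0.19 ± 0.06); it stood at -0.01 ± 0.06 against the low dose (adjusted p = 1.00), and its call against vehicle was lost without high dose replicate 2 or 3 or vehicle replicate 1 or 2 (highest adjusted p 0.195). CYP3A4, the hallmark of PXR in liver, was under the filter.

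Retinoid genes rose in 4 of 11 tested and fell in 1 (3.39% of all genes were higher and 2.78% lower). The count of higher ones was 2 without high dose replicate 1 or 2 or vehicle replicate 2. DHRS3, which reduces retinal to retinol and is induced by retinoic acid, had 42.8, 41.4 and 46.1 CPM in high dose libraries, against 28.2, 29.9 and 30.02 CPM in vehicle libraries (0.57 ± 0.05, adjusted p = 8.00e-10). Its groups did not overlap, and DHRS3 was also higher than at the low dose (0.34 ± 0.05) and under the Liriopis extract (0.31 ± 0.05), calls that were lost with all 54 libraries (adjusted p = 0.239 and 0.514). ALDH1A3, described above, belongs to this list too. STRA6, the retinol importer, rose by 0.44 ± 0.12, and RARRES1, a retinoid-responsive gene, by 0.37 ± 0.10; STRA6 lost its call in 4 and RARRES1 in 5 of the 6 fits that leave out a library, and both stayed under the threshold against the low dose. CRABP2, which carries retinoic acid, changed by -0.31 ± 0.08, a call lost without high dose replicate 2 or vehicle replicate 3 (highest adjusted p 0.223).

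Other rises stood outside these pathways. SLC38A4, an importer of neutral and cationic amino acids, had 4.99, 5.88 and 5.07 CPM in high dose libraries, against 2.75, 2.78 and 3.35 CPM in vehicle libraries (0.83 ± 0.13, adjusted p = 4.10e-05). It was higher than at the low dose as well (0.69 ± 0.13). PDK4, which inhibits pyruvate dehydrogenase, averaged 6.46 ± 0.218 CPM in high dose cells and 4.66 ± 0.259 CPM in vehicle cells (0.47 ± 0.09, adjusted p = 5.95e-04), and stood at 0.29 ± 0.09 against the low dose without passing (adjusted p = 0.258). ANXA10, a gastric annexin, rose by 0.30 ± 0.05 against vehicle and by 0.30 against the low dose. CDK6, a kinase of the G1 phase, rose by 0.32 ± 0.06 against vehicle. It did not pass against the low dose at 0.21 ± 0.06 (adjusted p = 0.0685).

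Some genes of secretory cells fell. Of 17 tested genes of the goblet and secretory list 5 were lower in high dose cells than in vehicle (background 2.78% lower) and none higher, with a median log2 fold change of -0.28; against the low dose 2 of 17 were lower (background 0.225%), and against the Liriopis extract 2 (background 0.167%). The count against vehicle was 2 without high dose replicate 3 or vehicle replicate 3, and 1 with all 54 libraries. The count against the low dose was 1 without high dose replicate 1 or low dose replicate 2, and that against the Liriopis extract was 0 without Liriopis replicate 1 and 1 without any 1 high dose library or Liriopis replicate 2. REG4, a lectin secreted by enteroendocrine and goblet cells, had 15.5, 14.7 and 16.4 CPM in high dose libraries, against 23.6, 23.2 and 26.4 CPM in vehicle libraries (-0.64 ± 0.06, adjusted p = 2.02e-09). AGR2, a disulfide isomerase needed for mucin folding, had 156, 151 and 155 CPM in the high dose libraries, against 190.4, 209.9 and 226 CPM in the vehicle libraries (-0.44 ± 0.04, adjusted p = 8.83e-10). Neither gene's groups overlapped, and both were also lower than at the low dose (-0.31 ± 0.07 for REG4, -0.25 ± 0.04 for AGR2), although REG4 lost that call without high dose replicate 1 or 2 or low dose replicate 2 (highest adjusted p 0.0796). AGR3, a paralog of AGR2, changed by -0.38 ± 0.12, CREB3L1, a secretory transcription factor, by -0.36 ± 0.09 and KLK1, a tissue kallikrein, by -0.60 ± 0.15. AGR3 lost its call in 4 and KLK1 in 2 of the 6 fits that leave out a library. The 2 genes left without high dose replicate 3 or vehicle replicate 3 were REG4 and AGR2, so CREB3L1 lost its call there as well. The gel-forming mucins MUC2 and MUC5AC stood at -0.37 ± 0.20 and -0.32 ± 0.19 and did not pass (adjusted p = 0.310 and 0.362).

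Of 18 tested enterocyte genes 2 were lower than in vehicle cells, HNF4A and VIL1 (2.78% of all genes were lower), and FOXA2, ANXA13 and SLC6A20 were lower outside that list. FOXA2, a forkhead factor of secretory differentiation, had 13.01, 10.7 and 11.5 CPM in high dose libraries, against 16.3, 15.2 and 16.9 CPM in vehicle libraries (-0.45 ± 0.08, adjusted p = 5.00e-04). HNF4A, a nuclear receptor of enterocytes, averaged 83.2 ± 3.48 CPM in high dose cells and 94.6 ± 6.24 CPM in vehicle cells (-0.18 ± 0.04), a call lost without high dose replicate 2 or vehicle replicate 3 (highest adjusted p 0.0714). VIL1, villin of the brush border, averaged 145 ± 6.51 CPM in high dose cells and 164 ± 1.77 CPM in vehicle cells (-0.18 ± 0.03). HNF4A and VIL1 were lower than at the low dose and under the Liriopis extract too, though single libraries ended both calls of HNF4A there (highest adjusted p 0.388 and 0.343). ANXA13, an annexin of intestinal epithelium, had 12.5, 11.8 and 12.4 CPM in high dose libraries, against 15.5, 18.3 and 19.3 CPM in vehicle libraries (-0.52 ± 0.07, adjusted p = 7.78e-06) and 15.5, 15.8 and 17.2 CPM at the low dose. SLC6A20, a proline transporter of the apical membrane, had 3.63, 5.22 and 4.17 CPM in the high dose libraries, against 6.15, 7.52 and 6.76 CPM in the vehicle libraries (-0.68 ± 0.11). Both were called against vehicle and against the low dose.

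In the Wnt and stem cell list 3 of 15 tested genes fell against vehicle and 1 rose (2.78% of all genes were lower and 3.39% higher). Leaving out single libraries gave 2 to 4 lower and 1 higher. With all 54 libraries 1 was lower and 0 higher, and with only the 2 groups in the fit 1 was lower and 1 higher. Against the low dose 1 of 15 was lower (background 0.225%), and against the Liriopis extract 3 (background 0.167%). Leaving out single libraries gave 0 to 1 lower against the low dose and 1 to 2 against the Liriopis extract. SP5, a direct Wnt target, averaged 7.58 ± 0.486 CPM in high dose cells and 10.3 ± 0.302 CPM in vehicle cells (-0.44 ± 0.08, adjusted p = 7.32e-04). AXIN2, the feedback inhibitor of the pathway, did not pass against vehicle (-0.11 ± 0.04, adjusted p = 0.100) but was lower than at the low dose (-0.18 ± 0.04) and under the Liriopis extract (-0.25 ± 0.04); the call against the low dose was lost in 4 of the 6 fits that leave out a library (highest adjusted p 0.218) and with all 54 libraries. LGR5, the receptor that marks crypt base stem cells, rose by 0.28 ± 0.05 against vehicle and stood at 0.12 ± 0.05 against the low dose (adjusted p = 0.550). SOSTDC1, a secreted antagonist of Wnt and BMP signals that is not in the list, averaged 9.63 ± 0.779 CPM in high dose cells and 13.5 ± 0.556 CPM in vehicle cells (-0.48 ± 0.09, adjusted p = 3.83e-04). SOSTDC1 was also lower than at the low dose (-0.53 ± 0.09) and under the Liriopis extract (-0.44 ± 0.09), the last call lost without high dose replicate 2 or Liriopis replicate 3 (highest adjusted p 0.061).

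SELENOW, a small selenoprotein with a redox motif, had the smallest adjusted p of the comparison. It had 89.7, 85.3 and 89.2 CPM in high dose libraries, against 139, 133 and 144 CPM in vehicle libraries (-0.66 ± 0.04, adjusted p = 4.29e-16). The lowest vehicle library lay above the highest high dose library, and SELENOW was lower than at the low dose (-0.35 ± 0.04) and under the Liriopis extract (-0.44 ± 0.04). With all 54 libraries its call against vehicle held (adjusted p = 0.0208), and both calls within the shared prefix were lost (adjusted p = 1 and 0.817). NOX1, the superoxide-producing oxidase of colon epithelium, averaged 12.7 ± 0.674 CPM in high dose cells and 15.5 ± 1.44 CPM in vehicle cells (-0.30 ± 0.07), with -0.39 ± 0.07 against the low dose; its call against vehicle was lost without high dose replicate 3 or vehicle replicate 3 (highest adjusted p 0.0805). ACSS2, which makes acetyl-CoA from acetate, averaged 12.03 ± 0.875 CPM in high dose cells and 15.9 ± 1.58 CPM in vehicle cells (-0.41 ± 0.08, adjusted p = 7.32e-04) and differed from the low dose by -0.46 ± 0.08.

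**Figure D3:**
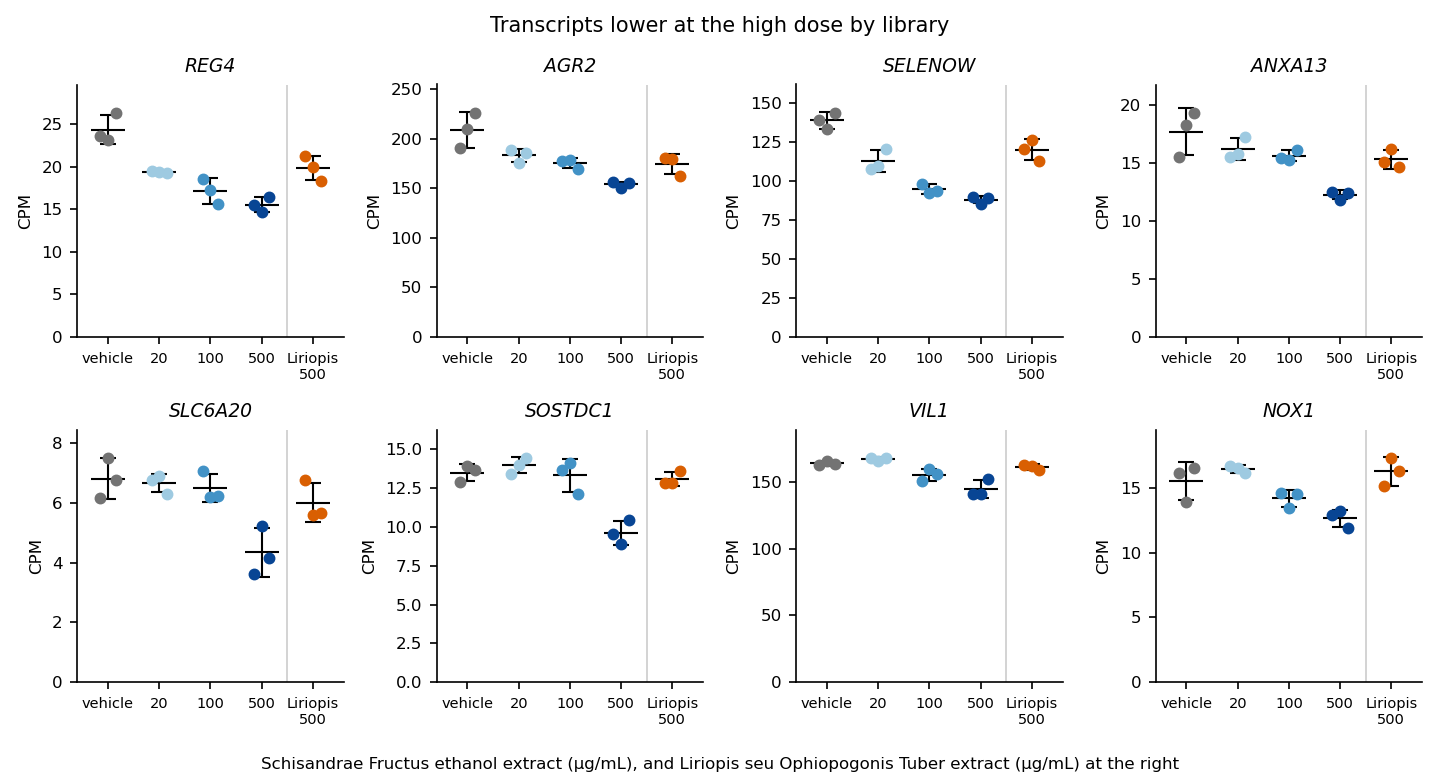
CPM of genes that were lower at the high dose, by group: vehicle, then 20, 100 and 500 µg/mL of Schisandrae Fructus extract, then 500 µg/mL of the Liriopis extract; points are single libraries, horizontal marks their means and whiskers the SD. The SELENOW means are 139, 113, 94.7 and 88.1 CPM from vehicle to the high dose, and 120.0 CPM under the Liriopis extract.

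Several lists had members that passed against vehicle and no member that passed between the high dose and the low dose or the Liriopis extract. Against vehicle 3.39% of all genes tested were higher and 2.78% lower. Heat shock genes were lower in 8 of 17 tested, with a median log2 fold change of -0.15. HSPA8, the constitutive HSP70 chaperone, averaged 2437 ± 73.1 CPM in high dose cells and 3024 ± 189 CPM in vehicle cells (-0.31 ± 0.04, adjusted p = 9.69e-06), and stood at 0.02 ± 0.04 against the low dose (adjusted p = 1.00). DNAJB1, its cochaperone, changed by -0.36 ± 0.04 against vehicle and 0.02 ± 0.04 against the low dose (adjusted p = 1.00). Chaperones of the endoplasmic reticulum were lower in 5 of 20, with MANF at -0.31 ± 0.07 and HSPA5 at -0.15 ± 0.04. Leaving out high dose replicate 1, 2 or 3 or vehicle replicate 3 gave 4, 3, 4 and 4 lower heat shock genes. Leaving out high dose replicate 1 or 2 or vehicle replicate 2 or 3 gave 3, 2, 3 and 1 lower reticulum chaperones. The 1 left without vehicle replicate 3 was MANF, so HSPA5 did not pass there. With all 54 libraries the heat shock and reticulum lists had 2 and 0. With only the high dose and vehicle in the fit, the lists had 1 and 0, and HSPA8 lost its call (adjusted p = 0.0578).

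For the next lists the shares over all genes are again 3.39% higher and 2.78% lower. Genes of DNA replication were higher in 8 of 27, among them the helicase subunits MCM2 (0.18 ± 0.03) and MCM7 (0.18 ± 0.03) and UHRF1, which maintains DNA methylation (0.22 ± 0.04). Mitotic genes were lower in 5 of 28, such as CCNB2, a mitotic cyclin (-0.22 ± 0.05), and UBE2C, a ubiquitin-conjugating enzyme of the anaphase complex (-0.20 ± 0.05). Without high dose replicate 1 or 3 or vehicle replicate 2 or 3, 5, 3, 5 and 4 replication genes were higher. Without high dose replicate 1 or 2 or vehicle replicate 2 or 3, 1, 3, 3 and 0 mitotic genes were lower, and the calls of CCNB2 and UBE2C were lost without vehicle replicate 3 (adjusted p = 0.143 and 0.0897), that of CCNB2 also without high dose replicate 1. Of the 13 genes encoded in mitochondria, 3 were lower (MT-ND1, MT-ND3 and MT-ND6, subunits of complex I), with 0 left without high dose replicate 3, 1 without vehicle replicate 1 or 3, and 7 without vehicle replicate 2. Nuclear genes of oxidative phosphorylation were lower in 5 of 38, in 2 without high dose replicate 2 or 3, and in 11, 3 and 1 without vehicle replicate 1, 2 or 3. Cytosolic ribosomal proteins were lower in 3 of 52, a share near that of all genes, and the count was 22 without vehicle replicate 1, 1 without high dose replicate 2 and 0 without vehicle replicate 3 or high dose replicate 3. With all 54 libraries 2 replication genes were higher, and the mitotic, mitochondrial, oxidative phosphorylation and ribosomal lists had 0 calls. With only the 2 groups in the fit, all 5 of these lists had 0. Extract and library prefix cannot be told apart for any of these differences.

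Cholesterol synthesis was lower in 6 of 26 genes against vehicle (2.78% of all genes were lower), in 1 with all 54 libraries or with only the 2 groups, and in 2 against the low dose (background 0.225%), LSS, which closes the sterol rings, at -0.23 ± 0.04 and EBP, a sterol isomerase, at -0.19 ± 0.04. EBP changed by -0.26 ± 0.04 against vehicle, a call lost with all 54 libraries (adjusted p = 0.671), where LSS did not pass (-0.10 ± 0.04, adjusted p = 0.216). EBP lost its call against the low dose in 5 of the 6 fits that leave out a library (highest adjusted p 0.279), and LSS lost its call there with all 54 libraries (adjusted p = 0.876).

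**Figure D4:**
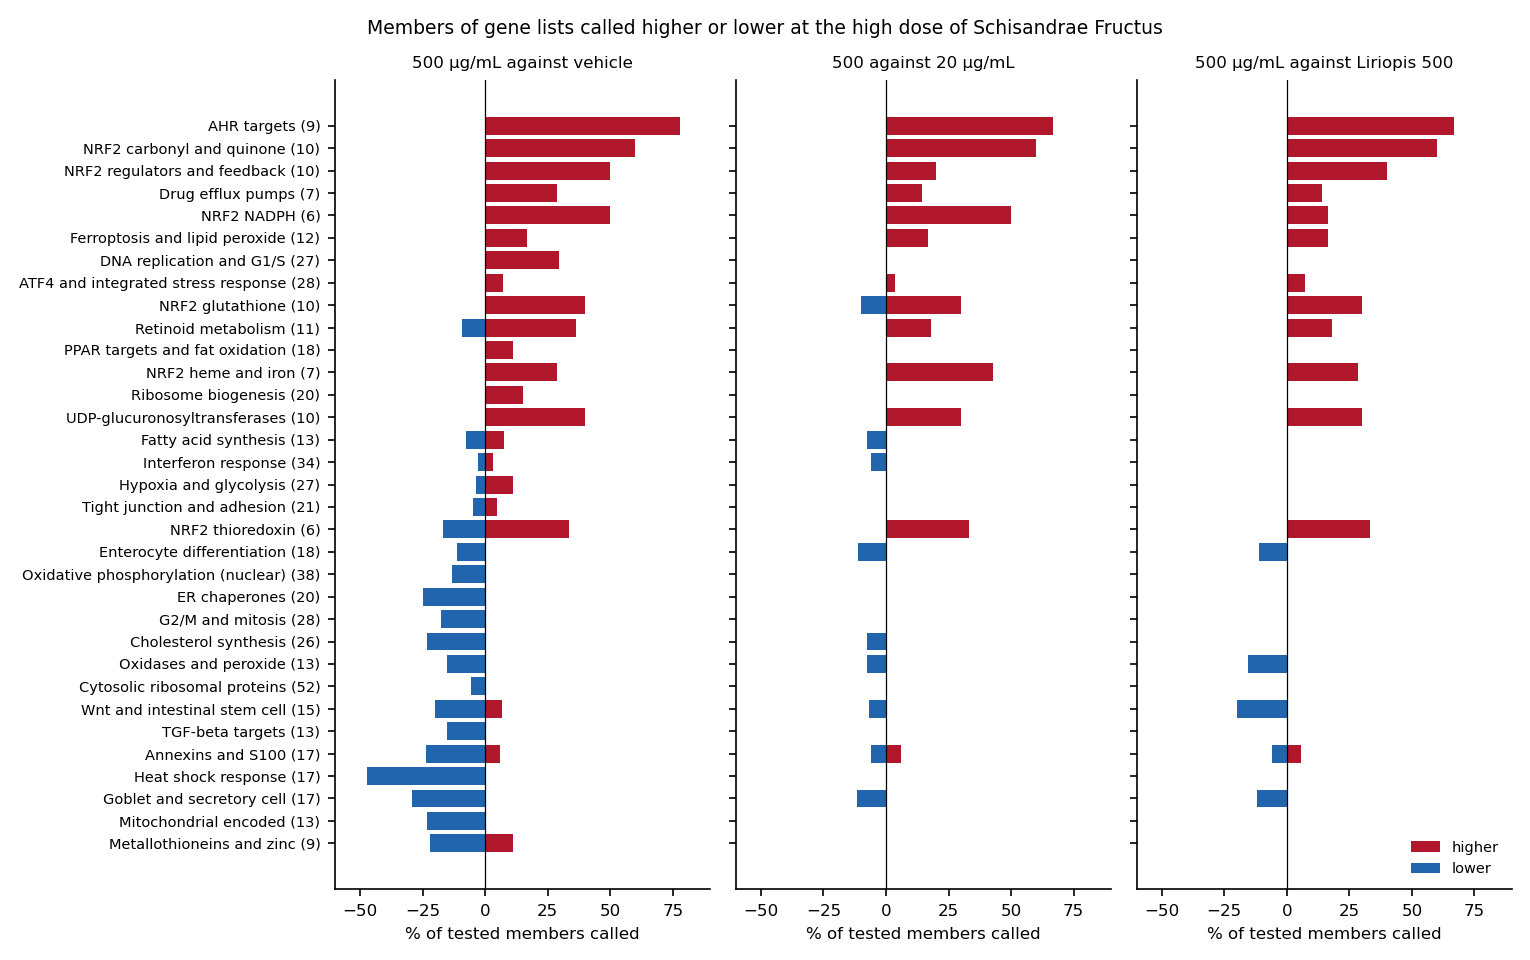
Percent of the tested members of each gene list that were called higher (bars to the right) or lower (bars to the left) at the high dose, against vehicle, against the low dose and against the Liriopis extract. AHR targets have 7, 6 and 6 of 9 members higher, whereas heat shock genes have 8 of 17 lower against vehicle and none in the comparisons within the shared library prefix.

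Among the largest differences from vehicle were genes with no call within the shared library prefix. CCDC78, a centriole protein, averaged 7.10 ± 0.420 CPM in high dose cells and 4.08 ± 0.183 CPM in vehicle cells (0.80 ± 0.14, adjusted p = 2.39e-04), and stood at 0.07 ± 0.13 against the low dose (adjusted p = 1.00). WDR90, also of centrioles, averaged 74.9 ± 1.90 CPM in high dose cells and 48.4 ± 8.88 CPM in vehicle cells (0.63 ± 0.09), and 77.3 ± 1.63 CPM at the low dose. CTAGE8, which belongs to a family of near-identical copies and is uncertain for that reason, changed by 1.08 ± 0.32, a call lost without high dose replicate 2 or 3 or vehicle replicate 2 or 3 (highest adjusted p 0.173). The metallothioneins MT1E and MT1X, metal-binding proteins, changed by -0.44 ± 0.10 and -0.63 ± 0.17 against vehicle and stood at 0.01 ± 0.10 and -0.22 ± 0.18 against the low dose. MT1E lost its call without vehicle replicate 3 (adjusted p = 0.0824), and MT1X without high dose replicate 1 or 3 or vehicle replicate 3 (highest adjusted p 0.157).

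In 5 further lists the counts of calls against vehicle lay near or under the 6.17% of all genes that passed. In the NF-kB and chemokine list none of 18 tested genes rose and 1 fell, the elastase inhibitor PI3 (-0.67 ± 0.14), and in the p53 list none of 19 passed against vehicle. GDF15, a secreted stress cytokine of the p53 and ATF4 lists named after its value was seen, was higher than at the low dose (0.45, adjusted p = 0.0126), a call lost without high dose replicate 1 or low dose replicate 2 or 3 (highest adjusted p 0.188). Of 34 interferon genes 1 rose and 1 fell against vehicle: SAMD9 (0.22 ± 0.06) and IFI6 (-0.53 ± 0.17). Both calls were lost in 4 and 5 of the 6 fits that leave out a library. Of 28 targets of ATF4, the factor of the integrated stress response, 2 rose: ASNS, asparagine synthetase (0.16 ± 0.05), and PSAT1, of serine synthesis (0.15 ± 0.04), both lost in at least 4 of those fits. Of 19 genes of the BCL2 family 1 rose, BMF (0.36 ± 0.11), a call lost without high dose replicate 2 or 3 or vehicle replicate 2 (highest adjusted p 0.223).

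Across doses, each of the 3 doses was compared with the same vehicle libraries. The medium dose differed from vehicle in 1005 genes (525 higher, 480 lower; 5.8% of those tested) and the low dose in 812 (429 higher, 383 lower; 4.69%). Without vehicle replicate 3 these counts were 250 and 105, and without vehicle replicate 1 they were 1815 and 1684. The medium dose had 392 calls without its replicate 1, and the low dose 391, 398 and 447 without its replicate 1, 2 or 3. CYP1A1 averaged 0.504 ± 0.181 CPM in vehicle cells, 0.618 ± 0.00262 at 20 µg/mL, 0.980 ± 0.0563 at 100 µg/mL and 1.82 ± 0.304 at 500 µg/mL (SD, n = 3 each), and it passed at the medium dose (0.95 ± 0.22, adjusted p = 0.0143) and not at the low dose (0.28 ± 0.25, adjusted p = 0.678). CYP1B1 passed at all 3 doses, with 0.17 ± 0.05 at the low, 0.35 ± 0.05 at the medium and 0.73 ± 0.05 at the high dose. Of the 9 tested AHR targets 1 was higher at the low dose (2.48% of all genes were higher), 3 at the medium (3.03%) and 7 at the high dose.

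NRF2 targets gave fewer calls at the lower doses. Of 49 tested, 2 were higher and 5 lower at the low dose (2.48% of all genes higher, 2.21% lower), 4 higher and 4 lower at the medium (3.03% higher, 2.77% lower), and 22 higher and 1 lower at the high dose. HMOX1 averaged 11.2 ± 0.442 CPM in vehicle cells, 10.8 ± 0.737 at the low, 12.4 ± 1.51 at the medium and 18.997 ± 0.969 at the high dose, and AKR1B10 averaged 106 ± 4.29, 99.7 ± 4.47, 108 ± 1.31 and 161 ± 3.62 CPM. Neither passed at the low or the medium dose. SELENOW, REG4 and AGR2 passed at every dose: SELENOW with -0.30 ± 0.04, -0.55 ± 0.04 and -0.66 ± 0.04, REG4 with -0.33 ± 0.06, -0.52 ± 0.06 and -0.64 ± 0.06, and AGR2 with -0.19 ± 0.04, -0.25 ± 0.04 and -0.44 ± 0.04, from low to high. SLC6A20 and ANXA13 passed at the high dose and did not at the medium dose, with -0.07 ± 0.11 and -0.18 ± 0.07 there, nor at the low dose. HSPA8 had -0.33 ± 0.04, -0.30 ± 0.04 and -0.31 ± 0.04 and WDR90 0.67 ± 0.09, 0.68 ± 0.09 and 0.63 ± 0.09, close to one value at all doses.

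Genes higher than vehicle had longer transcripts (median of the longest annotated transcript 4611 bases) than all tested genes (3039 bases), and those lower had shorter ones (2525 bases). Their median GC content was 53.3% for higher, 47.9% for lower and 48.6% for all tested genes. The 51 genes higher than at the low dose had a median GC of 49.3%, and the 39 lower ones 45.8%. The part of GC content or length in the counts was not tested.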

How the data were processed

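The authors deposited a table of RSEM expected counts per gene for 60 libraries of HT29 cells; per the submitters' processing notes, Trim Galore 0.6.5, STAR 2.7.3a, RSEM 1.3.3 and GRCh38 were used. Whether counting used strand is not given in the sources used here. Of the values, 89.9% were whole within 1e-09. Expected counts were rounded and analysed with edgeR 4.0.16 in R 4.3.3: filterByExpr by group (17330 of 60675 gene IDs kept), TMM scaling, and quasi-likelihood tests on group coefficients in 1 fit of 52 libraries of 19 groups (33 residual degrees of freedom). Of the 54 libraries in replicated groups, 2 that stand apart (Yijin-tang low dose replicate 2 and Soshiho-tang high dose replicate 3) were left out; neither belongs to a group compared here. A gene was called at a Benjamini-Hochberg adjusted p under 0.05 over all genes tested. Log2 fold changes have the SE from the quasi-likelihood F statistic; CPM use TMM-scaled library sizes. Total counts ran from 18161717 to 35128954 over all libraries, and no 2 libraries within the high dose or the vehicle group agreed within counting noise. The fit was also run on simulated counts drawn with its own estimates of spread per gene. Those counts hold no deviations particular to a library, so they cannot show how calls depend on single libraries.

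Gene lists, the members and the choice of 52 libraries were made with earlier results of these data known. Named genes were the 12 largest rises and 12 largest falls against vehicle that passed the test, had no overlap between the groups and averaged 5 CPM or more in 1 of them, up to 4 called members of each list in each direction, and all tested AHR and NRF2 list members, of which the text gives a part; list members named beyond this rule, such as CREB3L1, AXIN2, LSS, MUC2, MUC5AC and HSPA5, were chosen after their values were seen. Positions come from GENCODE 29 and promoters from RefSeq (GRCh38.p14). Replicate numbers were taken to pair libraries where every same-numbered pair correlated above 0.1. This held for the medium dose with vehicle (r = 0.463, 0.261 and 0.198), though differently numbered pairs there reached 0.175 and 0.15. It did not hold for the high dose with vehicle, the low dose or Liriopis. For the high with the low dose, same-numbered pairs had 0.085, 0.155 and 0.114 and all others were negative. The main fit used no pairing for any comparison, the medium dose included. Alternatives were DESeq2 1.42.0, RLE scaling, no filter, a replicate block, a prior count of 2, other sets of libraries, and leaving out each replicate.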

Additional observations from a re-analysis of the deposited data

How the results depend on the processing

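Counts of called genes varied with the set of libraries in the fit, which also set how many genes passed the filter (16890 with all 54 libraries and 15423 with the high dose and vehicle only). With all 54 replicated libraries the high dose differed from vehicle in 117 genes, from the low dose in 32 and from the Liriopis extract in 16, and the medium and low doses differed from vehicle in 80 and 27. In fits of 2 groups alone, the high dose differed from vehicle in 110 genes and from the Liriopis extract in 42, and the medium and low doses from vehicle in 17 and 37. With vehicle and library set 9 only, the high dose differed from Liriopis in 46 genes, and the medium and low doses from vehicle in 627 and 522. Without a filter on low counts the calls were 175 against the low dose, 158 against Liriopis and 1221 for the low dose against vehicle; against vehicle the high dose then had 492 higher and 770 lower. Leaving out each replicate in turn gave 358 to 1749 calls for the high dose against vehicle, 59 to 73 against the low dose, 40 to 59 against Liriopis, and 250 to 1815 and 105 to 1684 for the medium and low doses against vehicle. Without vehicle replicate 1, 46.9% of the calls against vehicle were higher. DESeq2 gave 1169 calls for the high dose against vehicle, and DESeq2's size factor scaling within edgeR (RLE) gave 1070.

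With the replicate number as a block, the counts were 1164 against vehicle, 99 against the low dose and 83 against Liriopis, and 1104 and 951 for the medium and low doses against vehicle; the block kept 131 of the 132 named calls against vehicle. Same-numbered libraries of the high dose and vehicle did not deviate together (r = 0.122, -0.052 and 0.056).

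Of 132 named genes called against vehicle, 35 kept their call with all 54 libraries, 36 with only the 2 groups, 107 with vehicle and library set 9, 127 under DESeq2 and 119 without a filter. No call of the main fit changed sign under any of these alternatives or when a replicate was left out. The cause of the lost calls was not tested.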

Other observations

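Selenoproteins, a list compiled after their values were seen because SELENOW stood out, gave mixed results. Of 25 listed genes 21 were tested. At the high dose against vehicle 2 were higher (3.39% of all genes were) and 5 lower (2.78%), SELENOW itself included. The median log2 fold change was -0.072. SELENOW, SELENOH (-0.35 ± 0.06), GPX1, the cytosolic glutathione peroxidase (-0.31 ± 0.05), SELENOF (-0.18 ± 0.06) and SELENOT (-0.18 ± 0.04) were the lower ones, and TXNRD1 and SELENOO (0.23 ± 0.06) the higher ones. Against the low dose 1 was higher and 1 lower (background 0.294% and 0.225%), and against the Liriopis extract 1 was higher and 3 were lower (0.254% and 0.167%). GPX1 lost its call against vehicle with all 54 libraries (adjusted p = 0.615), and SELENOF was close to the threshold in the main fit (adjusted p = 0.0456). GPX1 carries a pseudogene biotype in the annotation used, and no supply of selenium was measured.

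LINC00261, a long noncoding RNA whose gene neighbours FOXA2 on chromosome 20, was named after its value was seen. It had 10.6, 10.5 and 10.9 CPM in high dose libraries, against 16.95, 16.2 and 14.6 CPM in vehicle libraries (-0.57 ± 0.07), and differed by -0.43 ± 0.07 from the low dose. OAS2, an interferon-induced enzyme also named after its value was seen, averaged 1.12 ± 0.412 CPM at the high dose and 3.06 ± 0.468 CPM at the low dose (-1.36 ± 0.33, adjusted p = 0.0387), a call lost when any 1 of these 6 libraries was left out (highest adjusted p 0.28), and against vehicle it did not pass (-0.57 ± 0.35, adjusted p = 0.392).

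Over all 25 groups of the series, with CPM scaled over all 60 libraries, the high dose of Schisandrae Fructus was not the group with the highest level of CYP1A1 or HMOX1. CYP1A1 averaged 1.81 ± 0.302 CPM there (SD, n = 3), the fifth highest, next to 1.75 ± 0.309 CPM for Longan Arillus high dose (n = 3) and far under 167.5 ± 6.21 CPM for Soshiho-tang high dose (n = 2). HMOX1 averaged 18.9 ± 0.951 CPM, the fourth highest, within its spread of the single library of Polygalae Radix high dose at 19.6 CPM and under the single library of Aucklandiae Radix high dose at 67.3 CPM. SLC38A4 was highest in the high dose of Schisandrae Fructus, at 5.29 ± 0.492 CPM, followed by the single library of Aucklandiae Radix low dose at 3.87 CPM. These orders are descriptions, and groups of 1 library have no spread. The Soshiho-tang high dose group includes replicate 3, which was left out of the main fit as standing apart.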
